A study of Mus musculus with 4 samples.

Results

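The 10 genes described here are C1qa, C1qb, C1qc, Trem2, Apoe, Hmox1, Slc40a1, Cd163, Blvrb and Spic, out of 32285 genes counted in every library. They were chosen by name as genes of macrophage complement, Trem2 signalling and haem recycling, and were read in macrophage-like cells and against the haemoglobin transcripts of the same cell. The cells came from the aorta-gonad-mesonephros region (AGM) of C57BL/6J mouse embryos at stage E11.5 (embryonic days), the site where definitive haematopoietic stem cells emerge. CD31-positive cells were sorted by TMRM, a dye that accumulates in mitochondria with a high membrane potential. The dimmer cells form the MMPlow fraction and the brighter cells the MMPhigh fraction. Both gave 2 single-cell libraries, so comparisons rest on 2 libraries against 2. All groups shared the strain, the age, the tissue and the CD31 gate, and no treatment or mutant allele is named in the labels. The labels do not say whether the libraries of a fraction came from separate embryo pools. The p-values between fractions therefore measure the spread between libraries, which may be technical. For comparisons made within libraries, they measure how the difference inside a library varies from library to library, which may be technical too. In both cases edgeR estimates the spread of a gene with help from the other genes tested. A very small p-value therefore does not rest on the libraries' values of that gene alone.

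C1q is the recognition molecule of the classical complement pathway, built of A, B and C chains encoded by C1qa, C1qb and C1qc, and tissue macrophages are its main source. TREM2 is a surface receptor of macrophages and microglia that binds lipids, lipoproteins and apoptotic material, and apolipoprotein E, the product of Apoe, is among its ligands. Macrophages that engulf red cells take haem apart in steps. CD163 takes up haemoglobin bound to haptoglobin. Haem oxygenase 1 (Hmox1) opens the haem ring to give biliverdin, carbon monoxide and iron, and ferroportin (Slc40a1) exports the iron. Blvrb encodes biliverdin reductase B, which is not given a place among these steps here. SPI-C, encoded by Spic, is the transcription factor of red-pulp macrophages of the adult spleen and is induced by haem.

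The C1q genes lie side by side on chromosome 4 on the minus strand, in the order C1qb, C1qc, C1qa within 18675 bases (chr4:136880129-136898803, GENCODE vM21 gene models on mm10). Trem2 lies at chr17:48346401-48354147, Hmox1 at chr8:75093621-75100589 and Slc40a1 at chr1:45908068-45926523. The sequences upstream of 2 C1q genes and of Trem2 are shown as examples of members that were higher in MMPhigh. Apoe, which has 3 RefSeq starts, was higher too and is not printed. They are from RefSeq (GRCm38.p6), 5′ to 3′ on the strand of the gene and ending just before its RefSeq start or, for C1qc, before its GENCODE gene model. C1qb is at chr4:136886201-136886450 and C1qc at chr4:136893066-136893164, both on the minus strand, and Trem2 at chr17:48346151-48346400 on the plus strand. Capitals mark GAGGAA or its reverse complement TTCCTC, the core bound by PU.1, the ETS-family factor needed for macrophage development.
C1qb: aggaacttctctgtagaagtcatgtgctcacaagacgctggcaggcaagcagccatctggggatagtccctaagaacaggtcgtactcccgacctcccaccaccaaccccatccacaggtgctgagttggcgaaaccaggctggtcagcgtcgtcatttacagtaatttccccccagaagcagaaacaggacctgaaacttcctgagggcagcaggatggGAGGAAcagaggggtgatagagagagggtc
C1qc: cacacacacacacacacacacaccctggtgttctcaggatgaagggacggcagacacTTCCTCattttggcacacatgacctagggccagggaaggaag
Trem2: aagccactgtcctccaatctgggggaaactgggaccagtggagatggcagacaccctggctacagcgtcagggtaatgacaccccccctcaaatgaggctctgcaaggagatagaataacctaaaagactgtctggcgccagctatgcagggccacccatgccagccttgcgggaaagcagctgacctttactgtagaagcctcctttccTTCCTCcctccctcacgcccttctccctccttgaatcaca
The core began 30 bases before the end of the printed stretch of C1qb, 42 before that of C1qc and 40 before that of Trem2. The RefSeq start of C1qc lies inside the GENCODE gene model, and the core began 193 bases before it. It was present on either strand in 23.3% of 32851 RefSeq windows of 250 bases, so a match is frequent by sequence alone. The 7 members with an entry gave 10 windows (3 for Apoe, 2 for Blvrb), and 2 of the 3 Apoe windows also held the core. The antioxidant response core TGANNNNGC, the motif through which NRF2 and BACH1 act on haem genes, was found in both Blvrb windows and in that of C1qb, against 35.2% of all windows. The Maf recognition core TGCTGA was found for Spic and C1qb (16.1% of windows) and in C1qb overlaps an antioxidant response core. The E-box CACGTG was found in none of the 10 windows (6.02% of all windows). These matches are letters in a window and not measured binding.

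After filtering, 43102 cells remained, 16698 from MMPlow 1, 18583 from MMPlow 2, 4403 from MMPhigh 1 and 3418 from MMPhigh 2. Their median depth was 3145, 3651 and 3685 unique molecular identifiers (UMIs) in the first 3 of these and 23668.5 in MMPhigh 2. Pairs of libraries shared 14 to 369 barcode sequences, 7 to 87 of them among retained cells. Clustering left the 10 members and the haemoglobin genes aside, and 3 clusters holding 4903 cells were macrophage-like by 15 marker genes fixed for the purpose (Csf1r, Adgre1, Cx3cr1 and others), all 15 of which were detected in every library. They numbered 1747, 1836, 435 and 885 cells in MMPlow 1, MMPlow 2, MMPhigh 1 and MMPhigh 2, or 10.5%, 9.88%, 9.88% and 25.9% of retained cells. The class was not made of the same clusters in both fractions. One cluster, led by C1qc, C1qa and Ctss, held 396, 587, 408 and 865 cells and is called the shared cluster here. The others, led by Mrc1, F13a1 and Hdac9, held 1351 and 1249 cells of MMPlow and only 27 and 20 of MMPhigh. They were uneven within MMPlow, since 1 of them held 334 cells of MMPlow 1 and 89 of MMPlow 2. Doublet scores in the top 6% of a library were found in 171, 28, 12 and 19 macrophage-like cells of MMPlow 1, MMPlow 2, MMPhigh 1 and MMPhigh 2. A further cluster of 2335 cells, 2145 of them in MMPhigh 1, was led by Hbb-bs, Crabp1, Igfbpl1 and C1qb, mixed macrophage with neuronal genes and was left unnamed. It made up 48.7% of MMPhigh 1 and 4.42% of MMPhigh 2 and is not in the class. Its median depth in MMPhigh 1 was 2836 UMIs, against 17069 in the class. In a finer clustering (resolution 2), a cluster led by C1qb, C1qc and Aif1 was macrophage-like and held 1309 cells of MMPhigh 1 and 38 of MMPhigh 2. Cells chosen by marker UMIs instead of clusters numbered 1260 in MMPhigh 1, of which 418 were in the class. The class therefore leaves out many MMPhigh 1 cells with macrophage markers.

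All 3 C1q genes, Trem2, Apoe and Hmox1 stood highest in macrophage-like cells among 7 classes with at least 20 cells in each library. Levels are CPM, the usual counts-per-million scale, computed over the UMIs outside the haemoglobin genes in the summed cells of a class. They are 3′ counts and are compared here only within a gene. C1qb stood at 523 and 782 CPM in macrophage-like cells of MMPlow and at 1829 and 1885 in MMPhigh, while neural-like cells, which should lack it, held 45.4 and 34.0 CPM in MMPlow and 32.1 and 24.6 in MMPhigh. Megakaryocyte-like cells came next for C1qb at 65.5, 50.4, 116 and 81.6 CPM in MMPlow 1, MMPlow 2, MMPhigh 1 and MMPhigh 2. Blvrb had another order. It was highest in erythroid-like cells, at 333 and 410 CPM in MMPlow and 639 and 566 in MMPhigh, against 79.7, 89.1, 112 and 118 CPM in macrophage-like cells. Slc40a1 was highest in macrophage-like cells at 42.5, 52.5, 48.2 and 66.7 CPM, followed by erythroid-like cells at 31.0, 25.8, 25.7 and 25.01. Developing red cells are known to express both Blvrb and ferroportin. In the unnamed cluster the 2 libraries with most of its cells, MMPhigh 1 and 2, held 557 and 552 CPM of C1qb and 258 and 214 CPM of Blvrb, so C1qb was below its macrophage-like level there and Blvrb was below its erythroid-like level and above its macrophage-like level.

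**Figure D1:**
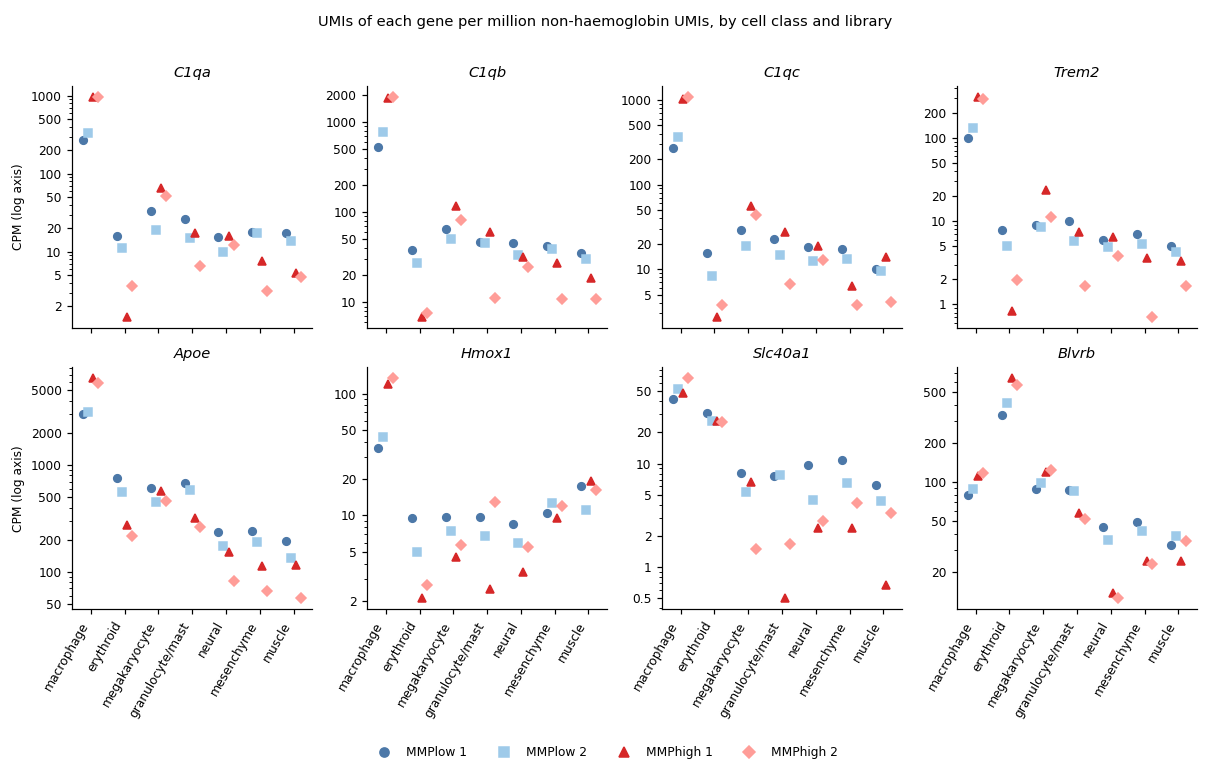
CPM (log axis) of the members in each cell class, 1 point per library, with values below 0.5 CPM drawn at 0.5. C1q, Trem2, Apoe and Hmox1 points are highest in macrophage-like cells, and Blvrb points are highest in erythroid-like cells.

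The main comparison asked how the members differed in macrophage-like cells between the 2 mitochondrial fractions. C1q, Trem2, Apoe and Hmox1 had fitted levels 2.40 to 3.88 times higher in MMPhigh, Blvrb was 1.60 times higher, and Slc40a1 differed least. All 8 members that could be tested passed edgeR's quasi-likelihood test as higher in MMPhigh. Over all 13558 genes tested, 38.1% passed and 18.5% passed as higher, so a call alone is common here. With the macrophage-like class drawn at resolution 2, where 943 genes passed, C1qb (1.23), Apoe (0.80) and Blvrb (0.67) lost their calls, with edgeR adjusted p of 0.051, 0.064 and 0.058, and Slc40a1 was -0.01. Cd163 and Spic had too few UMIs for the test.

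C1qa stood at 272 and 339 CPM in the MMPlow libraries and at 955 and 965 in the MMPhigh libraries. C1qc followed it closely, at 269 and 367 CPM in MMPlow and 1012 and 1079 in MMPhigh. Both MMPhigh values lay far above both MMPlow values for all 3 chains, and the MMPlow libraries varied more between themselves than the MMPhigh libraries. The log2 fold of MMPhigh over MMPlow was 1.89 for C1qa (SE 0.15, adjusted p = 0.00021), 1.75 for C1qb (SE 0.21) and 1.96 for C1qc (SE 0.18). The chains are made into 1 molecule, and their folds lay within 2 SE of each other.

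Trem2 stood at 100.3 and 129 CPM in MMPlow and 307 and 290 in MMPhigh, without overlap. Its log2 fold was 1.62 (SE 0.14, edgeR adjusted p = 0.00033). Apoe was counted at 2989 and 3098 CPM in MMPlow and at 6454 and 5892 in MMPhigh. That is a mean of 3044 ± 77.4 against 6173 ± 397 CPM (SD, n = 2 each) and a log2 fold of 1.26 with an SE of 0.15 (edgeR adjusted p = 0.00078). Its fold was the smaller of this receptor and ligand pair.

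Hmox1, which performs the first step of haem breakdown, stood at 35.7 and 43.9 CPM in MMPlow and 120 and 133 in MMPhigh. Its log2 fold was 1.91 (SE 0.13, edgeR adjusted p = 0.00013), between those of C1qa and C1qc. Blvrb had 79.7 and 89.1 CPM in MMPlow and 112 and 118 in MMPhigh, with a log2 fold of 0.68 and an SE of 0.10 (edgeR adjusted p = 0.0021). Slc40a1, the iron exporter, stood at 42.5 and 52.5 CPM in MMPlow and 48.2 and 66.7 in MMPhigh, and these ranges overlapped. Its fitted log2 fold of 0.53 (SE 0.17) had an edgeR adjusted p of 0.045. Without MMPlow 1 it was 0.37 (adjusted p = 0.26) and without MMPhigh 2 it was 0.29 (adjusted p = 0.28). The fitted folds include a scaling between fractions of 0.24 on the log2 scale, by which the median gene had fewer CPM in MMPhigh. Without that scaling the mean CPM of Slc40a1, 47.5 ± 7.05 in MMPlow and 57.5 ± 13.1 in MMPhigh (SD, n = 2 each), differed by 1.21 times, less than the sum of both SDs. For the other 7 tested members the log2 folds kept their sign and their call when any 1 library was left out, from 0.58 for Blvrb without MMPlow 1 to 2.24 for C1qc without MMPlow 2. With the unnamed cluster added to the class, they were 1.53, 1.40 and 1.60 for C1qa, C1qb and C1qc, 1.25 for Trem2, 0.91 for Apoe, 1.57 for Hmox1 and 1.05 for Blvrb.

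**Figure D2:**
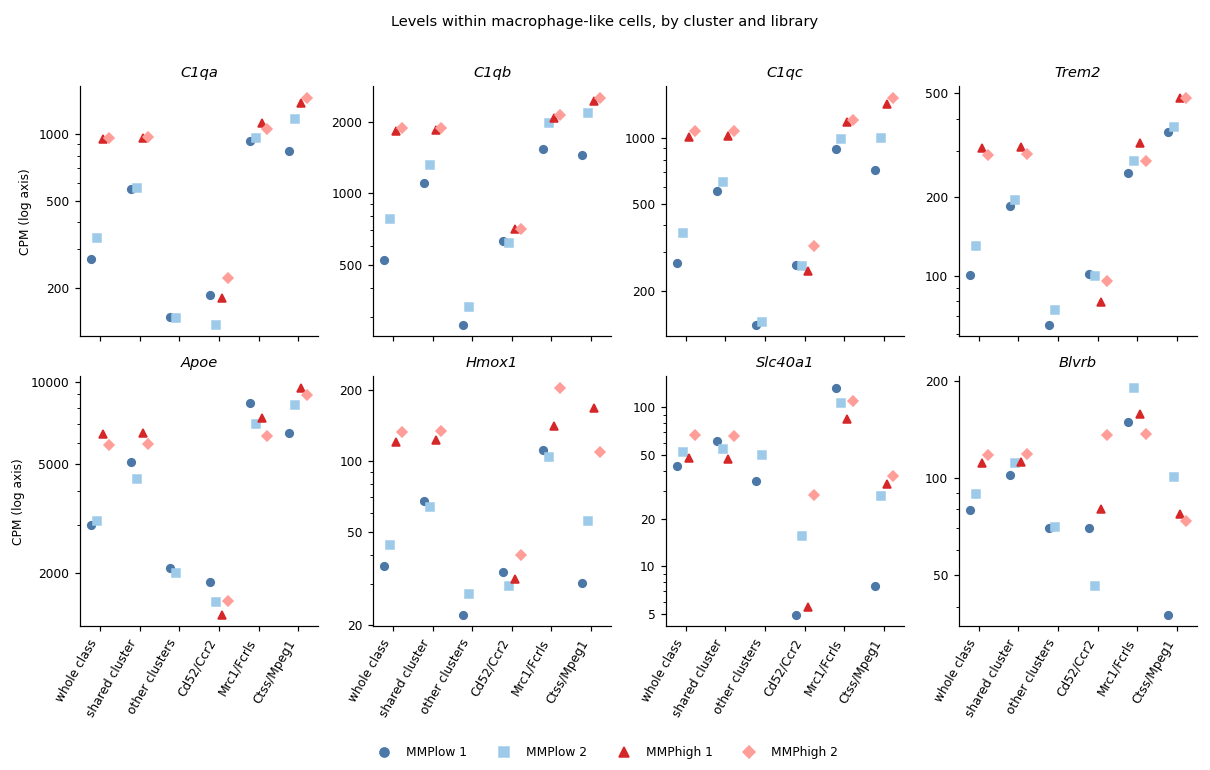
CPM (log axis) of the members in macrophage-like cells, 1 panel per gene and 1 point per library. Each panel shows the whole class, the shared cluster, the other clusters (MMPlow only) and clusters of the finer clustering. In the whole class and the shared cluster, C1q, Trem2, Apoe and Hmox1 points of MMPhigh lie above those of MMPlow, and the Slc40a1 points overlap. In the cluster led by Cd52 and Ccr2, the Trem2 points of MMPhigh lie below those of MMPlow.

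Several other measures moved with the fraction in this class, and their part in the result was not tested. The median depth of macrophage-like cells was 3012 and 3369.5 UMIs for MMPlow but 17069 and 24166 for MMPhigh. The 15 macrophage markers summed to 4574 and 5689 CPM in MMPlow and 8656 and 8691 in MMPhigh, and 14 of the 15 passed as higher. Erythroid markers were low throughout, with sums of 65.2, 48.3, 23.4 and 49.5 CPM. Endothelial markers moved strongly. The 12 of them summed to 1347 and 743 CPM in macrophage-like cells of MMPlow and 100.8 and 95.7 in MMPhigh, where Robo4 was at 0 in both libraries and Emcn in MMPhigh 1, and all 12 passed as lower. Cells of the 1 cluster named endothelial-like numbered 1427 and 1693 in MMPlow and 6 and 3 in MMPhigh. Several unnamed clusters also scored highest for the endothelial list. The largest of those held 1678 and 1924 cells of MMPlow and 1 cell of each MMPhigh library. Endothelial-like levels given here are those of the named cluster only. Signs of RNA quality moved too. Malat1, a nuclear RNA, stood at 7481 and 6823 CPM in MMPlow and 4326 and 4331 in MMPhigh, and the median mitochondrial share was 5.78% and 6.35% against 4.595% and 4.578%. In bulk sums like these, fewer cells with a transcript and less transcript per cell cannot be told apart. With every cell thinned to 2000 UMIs, C1qb was seen in 44.2% and 52.6% of MMPlow cells and 88.5% and 89.9% of MMPhigh cells, against 13.4%, 7.90%, 10.2% and 2.1% of neural-like cells in MMPlow 1, MMPlow 2, MMPhigh 1 and MMPhigh 2. All 3 chains were seen together in 12.9% and 17.6% of thinned MMPlow cells and 63.4% and 62.5% of thinned MMPhigh cells. Before thinning these shares were 21.5%, 29.1%, 85.5% and 92.3%. Trem2 was seen in 16.7% and 19.5% of thinned MMPlow cells and 46.0% and 45.3% of MMPhigh cells, against at most 1.80% of neural-like cells. Hmox1 was seen in 4.24% and 5.88% of thinned MMPlow cells and 15.9% and 17.7% of MMPhigh cells, against at most 1.44% of neural-like cells. Apoe was seen in 83.0% and 82.5%, then 90.8% and 92.4%, but its neural-like background was 40.2% and 28.9% in MMPlow and 26.7% and 10.0% in MMPhigh. Slc40a1, at 7.50%, 8.61%, 8.97% and 10.5%, and Blvrb, at 14.1%, 14.98%, 16.8% and 17.5%, had shares close to each other over the 4 libraries, and the Blvrb background was 10.5%, 8.89%, 5.80% and 2.20%. With 2 libraries against 2, the smallest two-sided p an exact permutation test can give is 0.333, which each of these shares reached.

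In the shared cluster alone, where both fractions had at least 396 cells per library, the members' folds were less than a log2 of 1 but 6 of the 8 still passed. This set was chosen after the clusters had been seen, and its finer makeup differed between the fractions. In a finer partition, a cluster led by Ctss and Mpeg1 made up 7.32% and 8.69% of its MMPlow cells and 41.9% and 39.1% of its MMPhigh cells, and one led by Cd52 and Ccr2 made up 35.1% and 39.0% against 17.6% and 16.6%. C1qa stood at 567 and 569 CPM in MMPlow and 967 and 971 in MMPhigh, a log2 fold of 0.80 (SE 0.11). C1qb and C1qc had log2 folds of 0.65 (SE 0.13) and 0.83 (SE 0.12), and Trem2, at 185 and 195 CPM against 311 and 291, had 0.69 (SE 0.10). Hmox1 had the largest fold of the members, from 67.9 and 63.8 CPM in MMPlow to 123 and 134 in MMPhigh (log2 fold 1.00, SE 0.11, edgeR adjusted p = 1.85e-05). Apoe had a log2 fold of 0.41 with an SE of 0.13 (edgeR adjusted p = 0.038). Slc40a1 at 61.4, 55.2, 47.7 and 66.5 CPM and Blvrb at 102, 111, 112 and 118 CPM did not pass (edgeR adjusted p = 0.92 and 0.43). In this cluster 20.1% of 12283 genes passed and 9.18% passed as higher. The macrophage markers there summed to 7553, 7808, 8682 and 8703 CPM and the median depth was 4459, 6029, 17565 and 24338 UMIs. Malat1 there was 5347, 4478, 4127 and 4262 CPM, and endothelial markers summed to 512, 422, 102 and 95.8 CPM. The mitochondrial share was lower in MMPlow than in MMPhigh, at 2.97% and 2.89% against 4.49% and 4.56%, the opposite of the order in the whole class.

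The MMPlow cells outside the shared cluster had lower levels of these genes. They held 147 and 146 CPM of C1qa, 2093 and 2001 of Apoe and 22.1 and 27.1 of Hmox1. Their ribosomal protein share was 13.5% and 12.3%, against 20.4% and 20.3% in the shared cluster, and their median mitochondrial share was 6.27% and 7.23% against 2.97% and 2.89%.

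The finer partition (resolution 2) gave 3 macrophage-like clusters with at least 20 cells in each library, and levels of C1qa, Trem2 and Slc40a1 differed widely between these. They were taken up after the clusters had been seen. The cluster led by Cd52 and Ccr2 (151, 238, 74 and 144 cells in MMPlow 1, MMPlow 2, MMPhigh 1 and MMPhigh 2) had low C1qa at 187, 136, 181 and 223 CPM. The cluster led by Mrc1 and Fcrls (226, 305, 185 and 397 cells) had 938, 965, 1125 and 1060 CPM, and that led by Ctss and Mpeg1 (29, 51, 171 and 338 cells) had 845, 1181, 1394 and 1471. Ccr2 marks monocyte-derived cells, Mrc1 many tissue macrophages.

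Slc40a1 and Trem2 were highest in different clusters. Slc40a1 was highest in the cluster led by Mrc1 and Fcrls, at 133, 106, 84.3 and 110 CPM, against 4.94 to 28.1 CPM in the cluster led by Cd52 and Ccr2 and at most 36.9 in that led by Ctss and Mpeg1, where MMPlow 1 had a single UMI in 29 cells. Trem2 was highest in the cluster led by Ctss and Mpeg1, at 354, 373, 481 and 482 CPM, against 247 to 322 in the Mrc1 and Fcrls cluster and 79.4 to 102 in the other. In each of these pairs the ranges over 4 libraries did not overlap. The clusters were made from the same cells, so these are descriptions without a test.

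Apoe, Hmox1 and Blvrb followed neither order exactly. Apoe was low in the Cd52 and Ccr2 cluster, at 1407 to 1864 CPM over the 4 libraries, and stood at 6355 to 8364 CPM in the Mrc1 and Fcrls cluster and 6486 to 9526 in the Ctss and Mpeg1 cluster, where the latter ranges overlapped. Hmox1 was likewise low in the Cd52 and Ccr2 cluster, at 29.5 to 39.7 CPM, while the Mrc1 and Fcrls cluster held 104 to 205 CPM. The Ctss and Mpeg1 cluster held 30.2 and 55.7 CPM of Hmox1 in MMPlow, from few UMIs, and 168 and 109 CPM in MMPhigh. Blvrb was highest in the Mrc1 and Fcrls cluster, at 137 to 190 CPM, with 46.5 to 136 CPM in the Cd52 and Ccr2 cluster and 37.7 to 101 CPM in the Ctss and Mpeg1 cluster. In each library the Mrc1 and Fcrls cluster had the highest Slc40a1 level of the 3. It also had the highest Blvrb level, but in MMPhigh 2 the Blvrb levels of this cluster and of the Cd52 and Ccr2 cluster were nearly equal, at 136.8 and 136.2 CPM. Erythroid markers summed to 14.9 and 146 CPM in these clusters of MMPhigh 2, and their part in the Blvrb levels was not tested.

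Between fractions within these clusters few members passed. None did in the Cd52 and Ccr2 cluster, where 5.25% of genes passed and 1.69% passed as higher. In the Mrc1 and Fcrls cluster, where 11.6% passed and 4.14% as higher, only Hmox1 did, at 112 and 104 CPM in MMPlow and 141 and 205 in MMPhigh (log2 fold 0.76, SE 0.17, edgeR adjusted p = 0.0046). In the Ctss and Mpeg1 cluster, where 2.59% passed and 0.963% as higher, Hmox1 had a log2 fold of 1.51 with an SE of 0.37 (edgeR adjusted p = 0.030) from 4 and 16 UMIs in MMPlow, and C1qc one of 0.75 (edgeR adjusted p = 0.0054). Other measures moved with the fraction in the Mrc1 and Fcrls cluster, and their part in the Hmox1 value was not tested. Its cells had a median depth of 3229 and 4764 UMIs for MMPlow against 18367 and 24967 for MMPhigh, Malat1 was 6921 and 5636 against 4610 and 4665 CPM, and erythroid markers were 59.8 and 43.1 against 11.997 and 14.9 CPM, with 3 of 4 tested lower. In the Ctss and Mpeg1 cluster the depth was 4415 and 5618 against 14856 and 20112.5 UMIs. The mitochondrial share there was 2.595% and 2.75% against 4.79% and 4.804%, the ribosomal protein share 22.5% and 20.3% against 16.9% and 17.3%, and Malat1 6471 and 5510 against 5142 and 5216 CPM. In all 3 finer clusters most tested endothelial markers were lower in MMPhigh, 10 of 11 for Cd52 and Ccr2, 12 of 12 for Mrc1 and Fcrls and 7 of 8 for Ctss and Mpeg1. In the other direction, values without a call were -0.21 for Trem2 and -0.22 for Apoe in the Cd52 and Ccr2 cluster, -0.11 for Apoe, -0.20 for Slc40a1 and -0.18 for Blvrb in the Mrc1 and Fcrls cluster and -0.09 for Blvrb in the Ctss and Mpeg1 cluster.

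**Figure D3:**
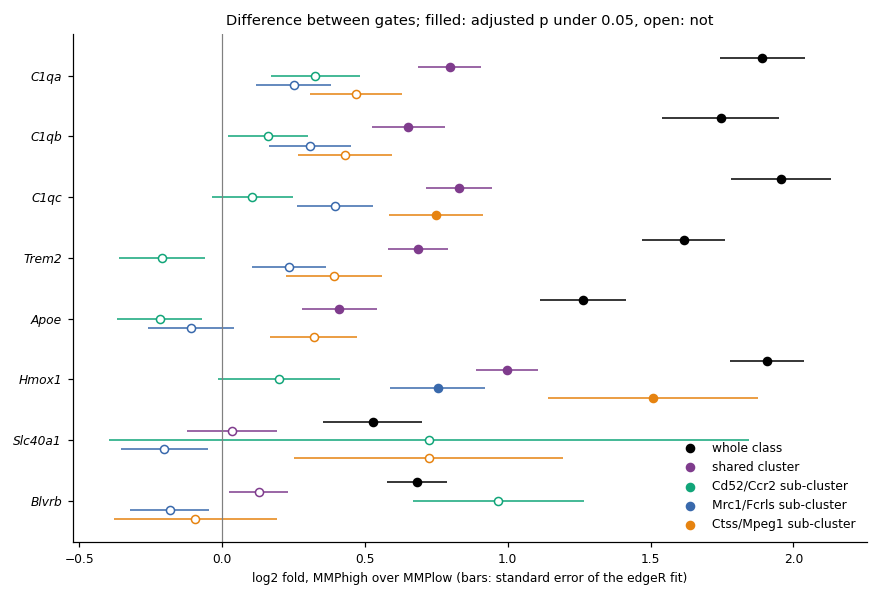
Log2 fold of MMPhigh over MMPlow with SE for each member, in the whole class, the shared cluster and the 3 finer clusters. The fold is largest in the whole class for the C1q chains, Trem2 and Apoe, and the Hmox1 fold is above 0 in all 5 sets.

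Cd163 and Spic were close to absent at this depth. In the whole class Cd163 had 3, 3, 2 and 2 UMIs and Spic 0, 1, 1 and 8 UMIs in MMPlow 1, MMPlow 2, MMPhigh 1 and MMPhigh 2. The counts of 3 UMIs or fewer are at the limit that a count of 0 allows, and no fold is given. The 8 Spic UMIs of MMPhigh 2 came from the library with the most UMIs per cell. In the cluster led by Mrc1 and Fcrls, Spic had 7 UMIs in MMPhigh 2 and 1 in MMPhigh 1. Cd163 had 2, 1, 2 and 2 UMIs in that cluster, in the same order of libraries.

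Gene lists of the same pathways, chosen with earlier results of these data known, were read in the same fit. Their counts stand against the 38.1% of all genes that passed and the 18.5% that passed as higher, and in the shared cluster against 20.1% and 9.18%. Of 19 tested genes of lipid handling around TREM2, 17 were higher in MMPhigh and 1 was lower. Ctsd, a lysosomal protease, rose by 1.79 on the log2 scale, Ctsb by 1.58, the apolipoprotein gene Apoc2 by 1.42 and Spp1, which encodes osteopontin, by 1.85. The median of the list was 0.92 against 0.00 for all genes tested. Among shared cluster cells 11 of 19 were higher and none lower, with Spp1 at 1.76 and Ctsd at 0.98. In the finer clusters fewer of the list passed. In that led by Cd52 and Ccr2, 0 of 18 were higher by edgeR and 2 lower, Apoc2 (-1.02) and Apoc1 (-0.95). In that led by Mrc1 and Fcrls, 2 of 18 were higher (11.1%, against 4.14% of all genes), Ctsd (0.43) and Inpp5d (0.38). In that led by Ctss and Mpeg1 4 of 19 were higher, Cd9 (0.87), Ctsd (0.78), Inpp5d (0.77) and Cd63 (0.67).

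Of 18 tested genes of haem and iron handling, 10 were higher and 4 lower, with a median of 0.47. The ferritin chains Ftl1 and Fth1, which store iron, rose by 1.48 and 1.38, the scavenger receptor Cd36 rose by 1.58, and Hp, which encodes haptoglobin, fell by 1.19. Restricted to the shared cluster, 6 were higher and 3 lower. Ftl1 there rose by 0.64, Hp fell by 1.25 and Tfrc, the transferrin receptor for iron uptake, fell by 0.60. Of 13 tested genes of haem sensing and NRF2, 4 were higher and 2 lower, so that 46.2% passed, near the share over all genes. Nfe2l2, which encodes NRF2, rose by 0.95, Prdx1, a peroxiredoxin gene, rose by 0.92 and the haem-binding repressor gene Bach1 rose by 0.52, while Gsr, which encodes glutathione reductase, fell by 0.58. Of 12 tested in the shared cluster, 3 were higher and 2 lower. Nfe2l2 rose by 0.55 and Mafg by 0.43, while Txnrd1, which encodes a thioredoxin reductase, fell by 0.54 and Gsr by 0.44.

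The complement list split. Of 14 tested genes 5 were higher and 4 lower, with a median of 0.20, and the 4 lower genes had the largest changes. Cd55 and Cd59a, which protect cells from complement, fell by 2.86 and 2.26, Cd93 fell by 2.29 and C3 fell by 2.02. Endothelial-like cells of MMPlow, the fraction that held nearly all of them, had 68.6 and 72.2 CPM of Cd59a and 196 and 204 of Cd93, against 17.3 and 13.3 and 65.5 and 43.9 in macrophage-like cells of MMPlow. For Cd55 they had 11.1 and 11.4 CPM against 8.15 and 6.71, a smaller gap, and for C3 0.120 and 0.267 CPM against 6.08 and 3.36. The part of endothelial RNA in the Cd55, Cd59a and Cd93 values was not tested. The list leaves out the C1q chains, which are among the members. In the shared cluster 3 were higher and 5 lower, and C3 and Cd93 fell by 1.87 and 1.85. Of 16 genes of apoptotic cell uptake, 7 were higher and 3 lower. Axl, a receptor for phosphatidylserine bridged by Gas6, rose by 1.76 and the integrin gene Itgb5 by 1.39, while Mfge8, a bridging molecule, fell by 1.74. Stab2 fell by 5.75, from 31.6 and 18.1 CPM in MMPlow to 0.382 and 0.376 in MMPhigh. An unnamed cluster led by Stab2, Gata4 and Oit3 held 293 and 351 cells of MMPlow and 3 and 1 of MMPhigh, and its part in the Stab2 value was not tested. Of 15 macrophage transcription factor genes 9 were higher and 1 lower. Bhlhe41 and Sall1, the latter known for microglial identity, rose by 2.95 and 2.62, and Id3, known in Kupffer cells, fell by 2.22.

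The next comparison asked which members go with C1q from cell to cell within a library. Cells of each library were put in tertiles, equal groups of cells, by the summed C1q UMIs per 10000 other UMIs, and the top tertile was set against the bottom tertile with the library as a block. Trem2, Apoe, Slc40a1, Hmox1 and Blvrb all passed as higher in the top tertile. Over 12128 genes, 17.0% passed and 11.2% passed as higher. The C1q chains made the split and are not tested.

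Apoe rose the most, from 873 to 5608 CPM in MMPlow 1, 875 to 5760 in MMPlow 2, 2021 to 12013 in MMPhigh 1 and 2502 to 11493 in MMPhigh 2 (log2 difference 2.68, SE 0.18). Trem2 rose from 45.3 to 174, 51.2 to 234, 118 to 566 and 147 to 524 CPM in the same order (2.18, SE 0.13). Every library moved upward for both genes. Slc40a1 rose from 19.5 to 71.3, 23.5 to 85.0, 11.1 to 52.0 and 40.5 to 79.1 CPM (1.76, SE 0.20). Hmox1 had 12.4 and 73.7 CPM in the bottom and top tertiles of MMPlow 1 and 75.3 and 145 in MMPhigh 2 (1.52, SE 0.26, edgeR adjusted p = 0.0053). Blvrb differed least, with 55.5 and 105 CPM in MMPlow 1 and 111 and 126 in MMPhigh 2 (1.00, SE 0.20, edgeR adjusted p = 0.011). It lost its call in 4 of 17 alternatives and was 0.30 with the members and haemoglobin among the clustering genes (edgeR adjusted p = 0.74). Hmox1 lost its call in 3 of 17, with an edgeR adjusted p of up to 0.10.

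The C1q tertiles also differed in which cluster their cells came from. The share in the shared cluster went from 5.67% to 53.8% and 12.6% to 70.8% in MMPlow and from 86.2% to 100% and 93.6% to 100% in MMPhigh. By the finer clusters the MMPhigh tertiles differed more. The Cd52 and Ccr2 cluster, where Trem2, Apoe and Slc40a1 were low, made up 41.4% of the bottom and 2.07% of the top tertile in MMPhigh 1 and 46.1% and 0% in MMPhigh 2. The share of the Ctss and Mpeg1 cluster was 28.97% and 60.7% in MMPhigh 1 and 20.7% and 59.0% in MMPhigh 2. Of the 15 macrophage markers 14 were higher in the top tertile (median 1.29 on the log2 scale), and of 9 tested erythroid markers 2 were lower (median -1.43). Erythroid markers summed to 41.2 CPM in the bottom and 14.3 in the top tertile of MMPhigh 1 and to 94.8 and 18.4 in MMPhigh 2. In MMPlow they went from 65.3 to 50.5 and from 51.2 to 42.5 CPM. Median depth fell from 18420 to 16140 and from 30747 to 19189 UMIs in MMPhigh. It rose from 2966.5 to 3331 and from 3441 to 4307 UMIs in MMPlow. Of 12 endothelial markers 3 were lower in the top tertile. The part of these measures in the members' values was not tested. Within the shared cluster 37.9% of 10654 genes passed, 19.1% as higher, and Trem2 (1.81), Apoe (2.29), Hmox1 (1.22) and Slc40a1 (1.84) still passed. Blvrb had 1.05 there and did not pass (edgeR adjusted p = 0.10). In the whole class, among the pathway lists, C5ar1 and Cfb rose by 2.37 each and C3ar1 by 2.11, Timd4, a phosphatidylserine receptor, by 3.18 and its relative in function Axl by 2.00. Hp fell by 2.64. The same 6 genes passed in the shared cluster, with Hp at -3.49, C3ar1 at 1.60 and Timd4 at 3.35.

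Per cell, the 3 C1q chains correlated with each other at Spearman values of 0.47 to 0.52 over 1747 cells of MMPlow 1 and 0.80 to 0.84 over 885 cells of MMPhigh 2. C1q with Apoe gave 0.64 to 0.70 over the 4 libraries, with Trem2 0.32 to 0.62 and with Hmox1 0.13 to 0.20. These cells share a library and its depth, and C1q itself correlated with depth at -0.44 in MMPhigh 2, so the values are descriptions. Over 28 sums of 7 classes by 4 libraries, the genes most like C1q in pattern were Ms4a6b, Ms4a6c and Ms4a6d (Pearson 0.98 for each of these), and the same genes led for Trem2. Ctsd led for Apoe (0.96), Npl for Hmox1 (0.91), Plbd2 for Slc40a1 (0.87) and Ifrd2 for Blvrb (0.94).

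The last comparison asked whether haemoglobin UMIs in a macrophage-like cell go with the haem genes of that cell. The class had 204 and 168 CPM of haemoglobin in MMPlow, against 116 and 66.9 in MMPhigh. After thinning, 29.3%, 21.9%, 5.29% and 4.97% of macrophage-like cells had a haemoglobin UMI. Neural-like cells, which do not make haemoglobin, gave 23.9%, 20.7%, 8.43% and 3.63%, with median depths of 3782.5, 4526, 6549 and 20236 UMIs. The macrophage-like share was above theirs in 3 libraries and below it in MMPhigh 1. A share near this level is not read here as haemoglobin taken up by macrophages. The source of the haemoglobin UMIs in macrophage-like cells was not tested. The primitive globins Hba-x, Hbb-y and Hbb-bh1 made up 71.8% and 76.8% of these UMIs in MMPlow and 40.9% and 33.2% in MMPhigh. In MMPhigh a few cells carried most of the signal. The 2 and 14 cells with at least 10 haemoglobin UMIs held all but 123 of 911 and all but 370 of 1600 haemoglobin UMIs, and the highest cells held 456 and 432.

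**Figure D4:**
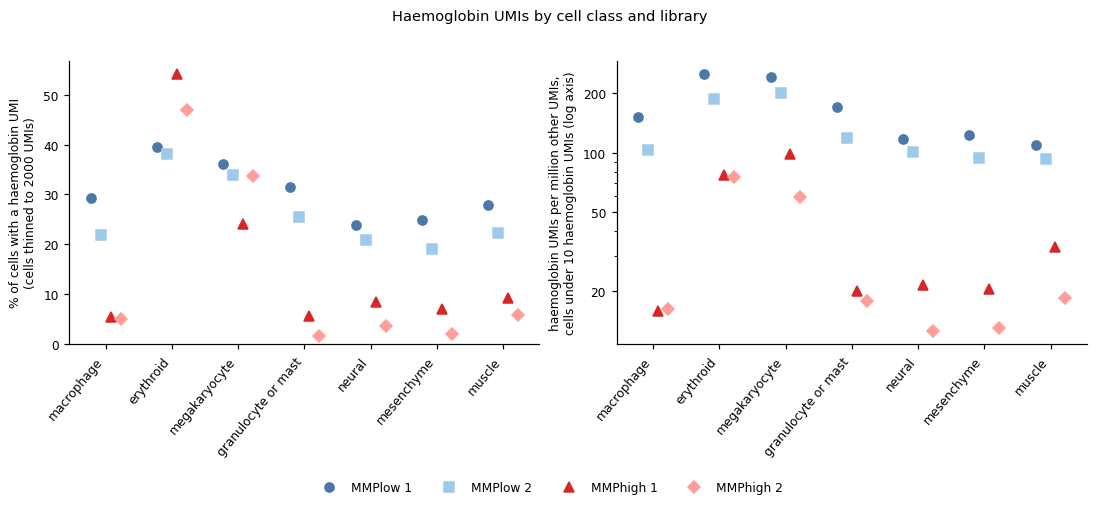
Share of cells with a haemoglobin UMI after thinning to 2000 UMIs, by class and library. Macrophage-like points lie beside neural-like points in each library and below erythroid-like points.

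No member passed between the top and bottom tertile of haemoglobin UMIs per 10000 other UMIs in the class, where 3 of 12008 genes passed (0.0250%, and 0.0167% as higher) and 836 had an unadjusted p under 0.05. DESeq2 gave 0 and 230. The 3 genes, named after their values were seen, were Tmem56 (2.84 higher on the log2 scale) and Slc38a5 (4.08 higher) and Sall1, which fell by 1.41. In every library the bottom tertile had 0 haemoglobin UMIs, its cells taken by file order from a larger set at 0. The top tertile had a median of 1 per cell in each. The comparison is therefore mainly of 1 UMI against 0, and it cannot show how the members change over larger amounts of haemoglobin. In MMPhigh the tertiles were partly ties at 0, since only 89 of 145 and 267 of 295 top-tertile cells had a haemoglobin UMI. Hmox1 stood at 22.1 and 34.7 CPM in the bottom and top tertile of MMPlow 1, 39.6 and 45.0 in MMPlow 2, 137 and 96.1 in MMPhigh 1 and 112 and 171 in MMPhigh 2. It went up in 3 libraries and down in 1, with a log2 difference of 0.17 (SE 0.19, edgeR adjusted p = 0.93). Slc40a1 had a difference of 0.30 (SE 0.11, edgeR adjusted p = 0.47) and went up in 3 of 4 libraries.

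Blvrb came closest to a call, with 76.1 and 73.3, 80.9 and 99.5, 89.7 and 133 and 96.8 and 155 CPM in the bottom and top tertiles. It was higher in the top tertile in 3 of 4 libraries, with a log2 difference of 0.40 (SE 0.10, edgeR adjusted p = 0.14). In the shared cluster it passed (0.53, SE 0.09, edgeR adjusted p = 0.0042), where 0.682% of 10696 genes did and 0.355% as higher. In that fit 4 of 5 tested erythroid markers passed as higher (median 1.90), against 0 of 9 in the whole class. Cells with a haemoglobin UMI set against cells with none gave 0.49 for Blvrb and 0.49 for Slc40a1 (edgeR adjusted p = 0.062 and 0.089), where 0.0385% of genes passed and 0.00% as higher. Those 5 genes were Sall1, Olfml3, Lair1, Ctsh and Gng10, named after their values were seen. Erythroid markers moved with the haemoglobin tertile, from 7.61 in the bottom to 45.9 CPM in the top tertile of MMPhigh 1 and from 20.3 to 99.5 in MMPhigh 2. In MMPlow 1 and MMPlow 2 they went from 58.4 to 85.4 and from 37.4 to 63.3 CPM. In cells without an erythroid marker UMI the Blvrb difference was 0.12 and did not pass. Blvrb stood at 333 to 639 CPM in the erythroid-like class, and the part of erythroid RNA in its tertile difference was not tested.

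Genes of C1q, Trem2 and Apoe had haemoglobin tertile differences from -0.12 for Apoe to -0.25 for C1qa, and none passed. Per cell, C1q and haemoglobin UMIs correlated at Spearman values of -0.02 to -0.11 in the 4 libraries, Hmox1 and haemoglobin at -0.003 to 0.07, and Blvrb and haemoglobin at -0.01 to 0.12, again with depth and library in common.

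The haemoglobin difference was then compared between the fractions with an interaction term, by which 6.60% of 12008 genes passed, 3.92% with a higher value in MMPhigh. The top tertile was not the same cut in both fractions. All 582 and 612 of its cells had a haemoglobin UMI in MMPlow, against 89 of 145 and 267 of 295 in MMPhigh. The remaining MMPhigh cells were placed by file order, and the part of this in the values was not tested. Apoe had 2908 and 3228 CPM in the bottom and top tertiles of MMPlow 1, 2978 and 3451 in MMPlow 2, 6823 and 5455 in MMPhigh 1 and 6460 and 5032 in MMPhigh 2. Both MMPlow libraries went up and both MMPhigh libraries went down, and the fractions differed by -0.50 on the log2 scale (SE 0.07, edgeR adjusted p = 9.64e-09). Trem2, at 98.6 and 106, 124 and 145, 317 and 273 and 327 and 242 CPM, had a difference of -0.50 (SE 0.12, edgeR adjusted p = 0.0015). C1qa, at 286 and 234, 312 and 370, 1007 and 828 and 1116 and 790 CPM, had -0.39 (SE 0.12, edgeR adjusted p = 0.037). It went down in MMPlow 1 as in both MMPhigh libraries, and only MMPlow 2 went up. Blvrb had 0.51 (SE 0.14, edgeR adjusted p = 0.010). It went up in MMPlow 2 as in both MMPhigh libraries, and only MMPlow 1 went down, from 76.1 to 73.3 CPM. Some of these calls rest on single libraries. C1qa was -0.03 without MMPlow 2 and -0.25 without MMPhigh 2, Trem2 -0.52 without MMPlow 1, -0.37 without MMPlow 2 and -0.34 without MMPhigh 2, and Blvrb 0.39 without MMPlow 1 and 0.46 without MMPhigh 2, none of which passed. Apoe passed whichever library was left out. A split after thinning to 2000 UMIs cannot serve as a check, since only 25 of 145 and 35 of 295 top-tertile cells of MMPhigh then had a haemoglobin UMI and the others were placed by file order. In cells without an erythroid marker UMI none of the 4 passed, with -0.28 for Apoe, -0.34 for Trem2, -0.16 for C1qa and 0.0046 for Blvrb. With the members and haemoglobin among the clustering genes 0 of all genes passed by edgeR (553 with an unadjusted p under 0.05), at -1.06 for Apoe, -1.15 for Trem2 and -1.11 for C1qa. Over 16 alternatives, the thinned split and the shared cluster aside, Apoe ran from -1.06 to -0.28 and Trem2 from -1.15 to -0.34, without a change of sign. Among cells of the shared cluster the 3 C1q chains, Trem2 and Apoe all passed, with values from -0.49 for C1qb to -0.65 for Trem2, where 1.65% of genes passed and 0.888% with a higher value in MMPhigh.

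The makeup of the tertiles and the markers moved with these values, and their part in them was not tested. By the same interaction term 4 of 15 macrophage markers were lower and 6 of 9 tested erythroid markers higher in MMPhigh in the whole class. Within the shared cluster 8 of 15 macrophage markers were lower (53.3%, median -0.41) and 0 of 5 tested erythroid markers passed. The share of cells from the Ctss and Mpeg1 cluster was 45.5% in the bottom and 29.7% in the top tertile of MMPhigh 1, and 39.3% and 30.2% in MMPhigh 2. That of the Cd52 and Ccr2 cluster, where C1qa and Apoe were low, was 15.9% and 20% in MMPhigh 1 and 12.2% and 23.1% in MMPhigh 2. In MMPlow it was 8.93% and 4.30%, and 12.9% and 8.50%, so its order was opposite to that in MMPhigh. The median depth of the bottom and top tertiles was 3034.5 and 2794.5 UMIs in MMPlow 1, 3323 and 3321 in MMPlow 2, 16950 and 17645 in MMPhigh 1 and 22642 and 27107 in MMPhigh 2.

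**Figure D5:**
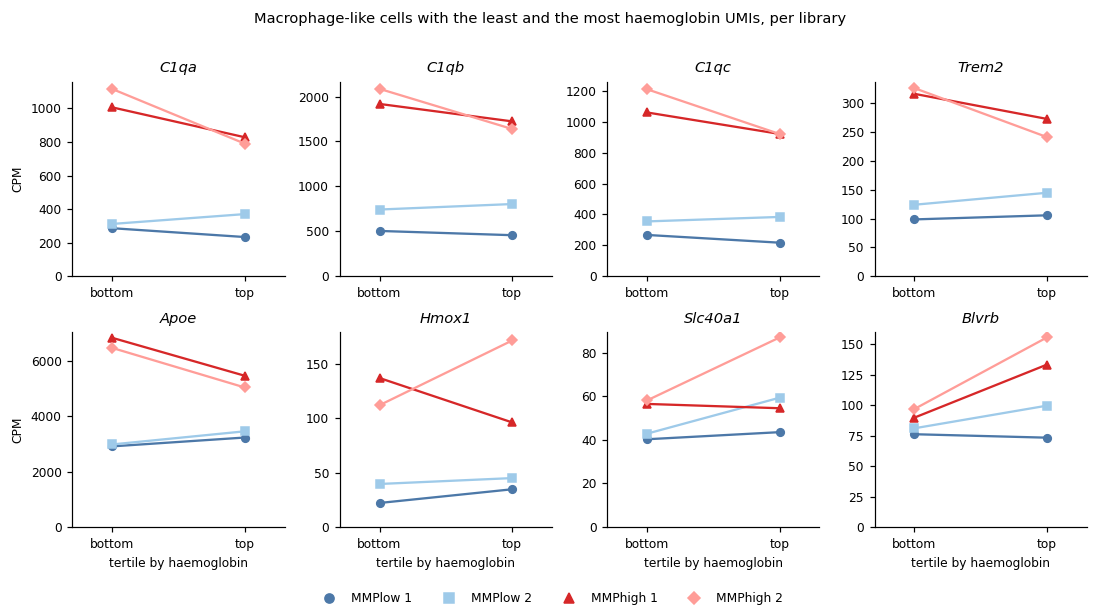
CPM of the members in the bottom and top tertile of haemoglobin UMIs per library, joined by a line. The lines run in both directions for Apoe and Hmox1, and upward in 3 of 4 libraries for Blvrb.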

How the data were processed

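The 4 libraries hold CD31-positive AGM cells of C57BL/6J mouse embryos at E11.5, sorted by TMRM into MMPlow and MMPhigh with 2 libraries each. Per the labels' protocols, the chemistry was 10x Genomics 3′ v3 with a target of at most 10000 cells per lane. The authors deposited matrices of UMI counts per gene and barcode with no normalization, which came from Cell Ranger 7.0.1 per the file headers. The submitters' processing notes name version 2.1.1 and mm10, and the difference was not resolved. Library totals ran from 51800709 to 120168395 UMIs over 4288 to 59928 barcodes.

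Barcodes with at least 2000 UMIs, at least 1000 genes and under 25% of UMIs from 13 mitochondrial genes were kept. Scrublet, in scanpy 1.11.5, called 2, 996, 0 and 68 doublets in MMPlow 1, MMPlow 2, MMPhigh 1 and MMPhigh 2, and is taken not to have worked in MMPlow 1 and MMPhigh 1. Cells were clustered on 2000 variable genes, leaving out the members, haemoglobin, mitochondrial, ribosomal protein and oxidative phosphorylation genes, with 30 components, 15 neighbours and Leiden resolution 1. Clusters were named from 12 marker lists. The naming rule, at least 3 markers at a log2 fold of 1 or more and at least 1 among the 10 leading genes, with a lead over other lists, was revised after the clusters had been seen.

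Libraries are the replicates. UMIs were therefore summed over the cells of each, leaving 8 haemoglobin genes out of counts and library sizes, and tested with edgeR 4.0.16 (R 4.3.3; TMM, filterByExpr, robust quasi-likelihood F-test, two-sided, Benjamini-Hochberg over all genes tested, threshold 0.05). The standard error is the size of the log2 fold over the square root of F and is approximate. Tertiles were cut within each library, ties were broken by file order, and the library was a block. On simulated counts, the fraction comparison recovered 76% of genes changed by 1 on the log2 scale and 96% of those changed by 2. Deviations of MMPlow 1 and MMPhigh 1 from their fraction means correlated at -0.04 over 13558 genes, so the replicate number was not used as a block. This value cannot show whether libraries with the same number shared embryos or a day.

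The 10 members, the pathway lists and the markers were chosen with earlier results of these data known. The named genes are the members in every comparison, at most 4 genes per list past the threshold with the largest log2 fold, and the 3 genes most like each member in pattern. Upstream sequences came from RefSeq, GRCm38.p6, with entries for 7 of the 10 members, and positions from GENCODE vM21. Alternatives were another scaling (RLE), DESeq2 1.42.0, no gene filter, stricter cells, other doublet handling, other resolutions, cells chosen by marker UMIs, thinning, other splits and leaving out each library.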

Additional observations from a re-analysis of the deposited data

Results flagged for a closer look

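Of the members, 4 differed between the fractions in how they changed from the bottom to the top tertile of haemoglobin UMIs, by edgeR's interaction term, and each is given as a value without an explanation. Apoe differed by -0.50 on the log2 scale (-0.502, SE 0.0733, adjusted p = 9.64e-09), Trem2 by -0.50 (-0.500, SE 0.118, adjusted p = 0.0015), C1qa by -0.39 (-0.392, SE 0.116, adjusted p = 0.037) and Blvrb by 0.51 (0.508, SE 0.141, adjusted p = 0.010). The first 3 were lower in MMPhigh than in MMPlow relative to the bottom tertile and Blvrb was higher. For C1qa the libraries did not separate by direction, since MMPlow 1 went down too, from 286 to 234 CPM. Nor did they for Blvrb, which went up in MMPlow 2 too, from 80.9 to 99.5 CPM. Apoe lost its call in 2 of 17 alternatives, Trem2 in 7 of 17, C1qa in 11 of 17 and Blvrb in 9 of 16, and none of these turned a sign. These tallies leave out a split after thinning cells to 2000 UMIs, in which most top-tertile cells of MMPhigh had no haemoglobin UMI. The unthinned split shares this limit in part. All 582 and 612 top-tertile cells of MMPlow had a haemoglobin UMI, but only 89 of 145 and 267 of 295 of MMPhigh did. The adjusted p-values also use a spread estimated with help from the other genes tested.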

How the results depend on the processing

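In the fraction comparison 5160 genes passed. The count was 3015 with the stricter cell filter, 943 at resolution 2, 2443 with members and haemoglobin among the variable genes, and 3222 with cells chosen by marker UMIs. Leaving out 1 library gave 3395 to 5868, the lowest without MMPhigh 2. Sets chosen after seeing the data gave 2467 (shared cluster), 1400 (with the unnamed cluster), 524 (Cd52 and Ccr2 cluster), 1256 (Mrc1 and Fcrls) and 245 (Ctss and Mpeg1). The sign turned for Slc40a1 at resolution 2 (-0.012) and in the Mrc1 and Fcrls cluster (-0.20), for Trem2 (-0.21) and Apoe (-0.22) in the Cd52 and Ccr2 cluster, for Apoe (-0.11) and Blvrb (-0.18) in the Mrc1 and Fcrls cluster and for Blvrb (-0.094) in the Ctss and Mpeg1 cluster. At resolution 2 the adjusted p of C1qb, Apoe and Blvrb was 0.051, 0.064 and 0.058 by edgeR, and that of Blvrb was 0.078 with members and haemoglobin among the variable genes. Slc40a1 lost its call in 11 further alternatives. The causes were not tested.

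The labels do not say whether the replicate numbers pair the libraries, and with the replicate number as a block 5107 genes passed in the fraction comparison.

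Between haemoglobin tertiles 3 genes passed. The count was 0 with DESeq2 (230 unadjusted), 110 with no gene filter, 70 with the stricter filter, 10 with no doublets removed, 0 with the top 6% of doublet scores removed (697 unadjusted), 9 at resolution 0.5, 41 at resolution 2, 0 with members among the variable genes (586 unadjusted), 84 by marker UMIs, 6 without erythroid marker UMIs, 45 by raw haemoglobin UMIs and 39 with a split at the median. It was 73 in the shared cluster, 0 with the unnamed cluster (1175 unadjusted), 5 for cells with against without a haemoglobin UMI, and 1 to 12 without 1 library. Blvrb passed in 6 alternatives.

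For the difference between fractions in the haemoglobin tertiles 793 genes passed. The count was 156 with DESeq2, which gave an adjusted p for only 1108 genes, 374 with the stricter filter, 168 with the top 6% of doublet scores removed, 0 with members among the variable genes (553 unadjusted), 338 by marker UMIs, 122 without erythroid marker UMIs, 177 in the shared cluster, 187 by raw haemoglobin UMIs, 2 after thinning and 144 to 706 without 1 library, the lowest without MMPlow 1. The split after thinning, chosen after seeing the data, is void, since only 25 of 145 and 35 of 295 top-tertile cells of MMPhigh then had a haemoglobin UMI. Its values were 0.072 for C1qa, 0.065 for Trem2 and 0.0067 for Apoe. In the shared cluster C1qb (-0.49) and C1qc (-0.54) passed too and Blvrb (0.17) did not.

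Between C1q tertiles 2064 genes passed, with 1305 by DESeq2, 739 with members among the variable genes, 4041 in the shared cluster and 1058 to 2082 without 1 library, the lowest without MMPhigh 1 and 1304 without MMPhigh 2. Trem2, Apoe and Slc40a1 passed in all 17 alternatives run, while Blvrb lost its call in 4 and Hmox1 in 3. Cd163 and Spic had too few UMIs for a test, and macrophage-like cells of MMPlow had a median of 3012 and 3369.5 UMIs.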
